A study of Mus musculus with 4 samples.

Results

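The comparison set colon libraries from germ-free mice given either of 2 bacteria, Escherichia coli and Lactobacillus rhamnosus GG (LGG, a probiotic strain), beside the 2 libraries from germ-free mice given none, an untreated library and one from mice gavaged with phosphate-buffered saline (PBS). All mice were of the C57BL/6 strain, 7 weeks old and raised without microbes, so that in the libraries without bacteria the colon had met none. The labels give the same dose, 2x10E9, for both bacteria. A 4 cm piece of colon was taken 4 h after gavage. The labels name 4 mice in each gavaged group, give no number for the untreated mice and do not say whether several mice were pooled for a library. Each condition has 1 library, and each side therefore holds 2 unlike treatments and no replicates. Of 24016 gene rows, the 14450 with a mean of at least 1 CPM (counts scaled to library size) over the 4 libraries were compared.

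A colon without microbes lacks the signals that bacterial products normally give through pattern-recognition receptors of the epithelium and of resident immune cells. Bacteria given by mouth can act on the epithelium, which makes mucus, antimicrobial proteins and oxidant defences, and on the cells beneath it. A piece of whole colon also holds smooth muscle, the enteric nervous system, blood vessels and the outer serosal layer of mesothelium. In such bulk tissue, fewer cells of a type and less RNA per cell cannot be told apart.

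The libraries held 16289580 (PBS) to 29899371 counts (LGG) and 3 counts, the limit that a count of 0 allows, came to 0.103 to 0.187 CPM. Colon markers were present in all 4: the goblet cell mucin Muc2 at 8174 to 10513 CPM, the colonocyte carbonic anhydrase Car1 at 2686 to 3623 and the smooth muscle myosin Myh11 at 2303 to 2929. Intervals and this limit cover counting error only, and they take every count as a separate molecule. No molecular identifiers mark separate molecules. Many counts were even, as were those of the gene C3 (untreated 5354, PBS 2366, E. coli 2442 and LGG 2690). Whether both reads of a pair were counted was not tested. If they were, the intervals are too narrow, and bounds near 0 are uncertain.

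Where values are listed without names below, they run in the order untreated, PBS, E. coli, LGG. A gene separated the sides when both of its values with bacteria lay above, or both lay below, both of its values without. Its gap is then the log2 distance between the nearest libraries of the 2 sides, with a 95% counting interval of that pair from the exact conditional binomial distribution. Between both bacteria and both bacteria-free libraries, 5072 genes (35.1%) separated, 2498 higher (17.3%) and 2574 lower (17.8%) with bacteria. Most of these gaps were small. The interval of the gap excluded 0 for 479 genes (3.31%), 281 of them higher (1.94%) and 198 lower (1.37%). A gap of at least 1.5-fold with an interval that excluded 0, called the size rule here, was met by 28 genes (0.194%), 15 higher (0.104%) and 13 lower (0.0900%).

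Any 4 libraries can be divided 2 against 2 in 3 ways, and the other 2 divisions mix the treatments. With E. coli and PBS against LGG and untreated, 36 genes (0.249%) met the size rule, 12 higher (0.0830%) and 24 lower (0.166%), and 5417 (37.5%) separated. With E. coli and untreated against LGG and PBS, 8 genes (0.0554%) were past it, 3 higher (0.0208%) and 5 lower (0.0346%), and 3961 (27.4%) separated. The bacteria division thus lay between the others on both counts. The spread of the side differences (the mean log2 CPM of one side minus that of the other) followed the same order, with an SD over genes of 0.22 for the bacteria division, 0.23 and 0.17 for the others. The leading genes of the first mixed division were the epidermal-type protease Casp14 and the sodium channel subunit Scnn1g on the side of E. coli and PBS, and the alkaline phosphatase Akp3 and the apolipoproteins Apoa4 and Apoa1 on the other. Apoa4, for example, reached 45.8 CPM in the untreated and 5.95 in the LGG library but 0.310 after E. coli, so that its values grouped LGG with untreated and not with E. coli.

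**Figure D1:**
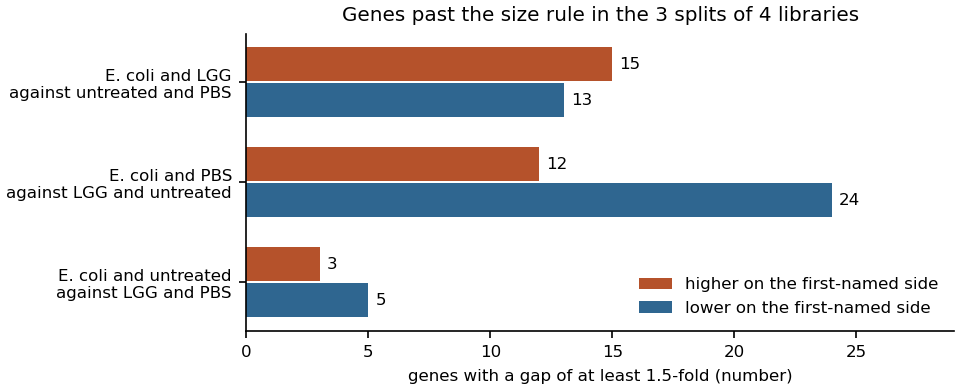
Number of genes past the size rule (x axis, genes) for each way of dividing the 4 libraries 2 against 2 (y axis); bars are split by direction on the first-named side. Both bacteria against both bacteria-free libraries gave 15 higher and 13 lower, E. coli and PBS against LGG and untreated 12 and 24, and the remaining division 3 and 5.

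The quasi-likelihood test of edgeR, fitted on all 14450 genes with 2 libraries a side, called 0 genes (0%) at a Benjamini-Hochberg adjusted p under 0.05, and 600 genes (4.15%) had an unadjusted p under 0.05, 166 higher and 434 lower. The same fit called 0 genes in each mixed division, with 1055 (7.30%) and 193 (1.34%) at an unadjusted p under 0.05. DESeq2 called 2 genes (0.0138%) for the bacteria, complement C3 (adjusted p = 7.643e-06) and the chymotrypsin-like protease Ctrl (adjusted p = 0.03146), and 93 of 11648 (0.798%) and 0 in the mixed divisions. These p-values measure the spread between unlike treatments on a side. Without the PBS library, 503 genes met the size rule and edgeR called 581 (248 higher, 333 lower). Without untreated, E. coli or LGG, the size rule was met by 62, 71 and 116 genes, and edgeR called 0 each time.

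The genes higher with both bacteria were mostly digestive enzymes of the exocrine pancreas. Of the 15 past the size rule, 12 belonged to a list of pancreatic acinar genes. They encode lipases (Pnlip, Pnliprp1 and Cel), proteases of the trypsin, chymotrypsin and elastase families (Prss2, Try4, Ctrb1, Ctrl, Cela2a and Cela3b), carboxypeptidases (Cpa1 and Cpb1) and a ribonuclease (Rnase1). Pnlip, pancreatic triglyceride lipase (NM_026925, on chromosome 19 from 58744855 to 58756278, mm9), had 0.140, 2.87, 12.7 and 6.60 CPM. Ctrl was at 0.631 and 0.997 CPM without bacteria, and at 5.85 after E. coli and 2.70 after LGG. Cela2a, a pancreatic elastase, was at 1.33, 4.36, 14.5 and 9.36 CPM. All 12 genes had the same order of libraries, from untreated to PBS to LGG to E. coli, and their sides did not overlap, as the rule requires. Ctrl, Pnliprp1, Cel, Try4, Cpa1, Rnase1 and Cela3b had a mean under 1 CPM over the untreated and PBS libraries. They met the expression filter only through their values with bacteria.

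The gap between LGG and PBS, the nearest libraries, was 1.42 on the log2 scale for Ctrl (95% counting interval 0.65 to 2.31), 1.20 for Pnlip (0.73 to 1.70) and 1.10 for Cela2a (0.72 to 1.502), and the smallest of the 12 gaps was 0.78 for Cela3b (0.14 to 1.49). Within the side without bacteria the same genes differed by 0.64 to 4.40 between PBS and untreated, with a median of 3.32. That is more than the median gap of 1.04 between the sides. Within the bacteria, LGG minus E. coli ran from -1.254 to -0.60. In the edgeR fit Ctrl had an adjusted p of 0.8533, as did each of the other 11 genes.

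All 12 genes have a RefSeq promoter in the GRCm38.p6 table, which runs from 250 bases before the start to 50 after it. The pancreatic factor PTF1 is known to bind an E-box paired with a TC-box in acinar promoters. Each motif was searched on both strands. For the core of the TC-box the letters searched were TGGGAAA, which occurred in 5 of the 12 promoters and in 8.06% of all 32851. For the E-box they were CACCTG, which occurred in 7 of the 12 and in 20.2% of all. The ends of the motifs can overlap, and no matches do in the promoters shown. Both occurred in 3 of the 12, Cel, Cela2a and Prss2, and in 1.61% of all. Those 3 are shown because they hold both motifs in genes that moved together; capitals mark every match on either strand, and a match is a description of these letters and no evidence of binding.

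Cel, chr2:28563354-28563653, minus strand: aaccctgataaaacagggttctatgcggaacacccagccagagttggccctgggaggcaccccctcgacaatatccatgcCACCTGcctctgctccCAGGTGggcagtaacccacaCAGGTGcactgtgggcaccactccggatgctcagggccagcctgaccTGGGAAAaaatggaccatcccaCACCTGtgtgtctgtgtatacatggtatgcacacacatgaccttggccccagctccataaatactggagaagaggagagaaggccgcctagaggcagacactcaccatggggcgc
Cela2a, chr4:141825956-141826255, minus strand: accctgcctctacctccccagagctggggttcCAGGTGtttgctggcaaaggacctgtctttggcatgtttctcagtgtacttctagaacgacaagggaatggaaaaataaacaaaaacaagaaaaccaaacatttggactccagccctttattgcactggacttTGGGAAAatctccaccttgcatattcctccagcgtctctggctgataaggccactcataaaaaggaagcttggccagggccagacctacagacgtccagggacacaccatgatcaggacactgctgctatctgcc
Prss2, chr6:41521526-41521825, plus strand: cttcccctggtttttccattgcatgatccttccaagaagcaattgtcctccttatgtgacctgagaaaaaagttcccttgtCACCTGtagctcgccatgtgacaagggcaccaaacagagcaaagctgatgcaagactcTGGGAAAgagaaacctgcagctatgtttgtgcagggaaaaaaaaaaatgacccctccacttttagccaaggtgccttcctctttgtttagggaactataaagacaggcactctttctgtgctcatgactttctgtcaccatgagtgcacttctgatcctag

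TGGGAAA begins 87 bases before the start in Cel, 85 in Cela2a and 111 in Prss2, as counted on the gene's strand. Matches to CACCTG begin at 170, 154, 134 and 65 bases in Cel, at 218 in Cela2a and at 169 in Prss2. The search set no distance between the motifs, so a promoter that holds both need not hold them as a pair. Cel was at 0.0701 CPM in the untreated library, from 2 counts, then at 1.06, 6.06 and 2.53. Prss2, a trypsinogen, was at 0.140, 1.87, 6.30 and 3.55 CPM in the same order. The trypsinogens Prss2 and Try4 have near-identical copies, so their separate levels are uncertain.

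The rest of the acinar list behaved less evenly. Of its 24 genes 19 were measured, 15 separated upwards (17.3% of all genes did) and 0 downwards, and the median side difference was 2.30 against 0.00 for all genes tested. It ran from 1.30 without the untreated library to 3.11 without PBS. The 15 include genes that the expression filter kept only through their values with bacteria, which raises the upward share. The colipase Clps (gap 0.01) and the lectin Zg16 (0.02), which goblet cells also make, separated without passing the size rule. The secretory granule protein Sycn, at 132, 205, 265 and 179 CPM in the untreated, PBS, E. coli and LGG libraries, overlapped between the sides, as did the elastase Cela1 at 119, 195, 236 and 178. Without Zg16 the summed level of the list was 267 and 439 CPM without bacteria and 611 and 424 with E. coli and LGG, and these ranges overlap. The amylase Amy2a5 and the trypsinogen Prss1 had a count of 0 in every library. The pancreas is no part of the colon, and a part of other tissue or of luminal content in these pieces was not tested.

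Outside that list, Cyp2d9, a cytochrome P450 (NM_010006, on chromosome 15 from 82282807 to 82287257, mm9), was the only gene past the rule on the higher side with a mean of at least 10 CPM. It had 8.34 and 8.66 CPM without bacteria and 14.4 and 14.1 with E. coli and LGG. Its values were close within each side, and the gap was 0.70 (0.42 to 0.99), or 1.63-fold. Its adjusted p in edgeR was 0.8533 and in DESeq2 0.323. The others on the higher side were the non-coding Dmr, at 1.54, 1.56, 2.58 and 2.63 CPM, and 2210010C04Rik, at 0.0701, 2.12, 7.64 and 3.90 CPM. Both were named after their values were seen. 2210010C04Rik followed the order of the acinar genes. It lies on chromosome 6 (from 40980267), as do the trypsinogens Try4 (from 41252271) and Prss2 (from 41471775). Because it was in no list, counts made without the acinar list still hold it.

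Among the 13 genes lower with both bacteria were complement C3 and 4 markers of mesothelium, the cell layer that covers the outside of the gut. C3 (NM_009778, on chromosome 17 from 57343396 to 57367559, mm9), the central component of the complement cascade, was by far the most abundant of the 13. It was at 188 CPM in the untreated and 147 in the PBS library, and at 84.1 after E. coli and 91.9 after LGG. Both values with bacteria were below both values without, and the gap of -0.68 between LGG and PBS had an interval of -0.76 to -0.60. Within the sides, PBS differed from untreated by -0.35 and LGG from E. coli by 0.13. The gap was -0.63 after a trend with transcript length, described further on, was removed. C3 had an adjusted p of 0.8533 in edgeR against 7.643e-06 in DESeq2, so that its call depended on the tool.

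The C3 promoter is shown because C3 is the abundant gene of this comparison. Capitals mark the only match to TTGCNNAA, a spacing of the binding site of C/EBP factors, which 10.8% of all promoters hold. It begins 45 bases before the start.

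C3, chr17:57228087-57228386, minus strand: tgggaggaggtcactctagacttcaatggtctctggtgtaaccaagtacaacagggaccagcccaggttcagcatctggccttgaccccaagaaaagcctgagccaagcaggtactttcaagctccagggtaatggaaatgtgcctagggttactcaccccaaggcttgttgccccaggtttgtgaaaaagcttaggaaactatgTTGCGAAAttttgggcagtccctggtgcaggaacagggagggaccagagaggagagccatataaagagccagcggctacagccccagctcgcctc

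Other complement genes went partly with C3. Among 19 complement symbols, a group assembled after values were seen, 6 separated downwards (17.8% of all genes did) and 1 upwards. C2, which with C4 forms the classical C3 convertase, was at 5.47 and 5.05 CPM without bacteria and 2.75 and 3.55 with, a gap of -0.50 (-0.94 to -0.07) just outside the size rule. C1qa, a recognition subunit made by macrophages, was the 1 gene on the higher side, at 33.6, 32.9, 34.4 and 36.5 CPM.

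Mesothelial markers were lower in both bacteria libraries. Of 9 measured genes of the list, 7 separated downwards (77.8%, against 17.8% of all genes) and 0 upwards. On the lower side 4 passed the size rule, as did 0.0900% of all genes. The median side difference of the list was -0.93. Lrrn4, a leucine-rich repeat protein of mesothelium (NM_177303, on chromosome 2 from 132694252 to 132706598, mm9), was at 5.26 and 3.99 CPM without bacteria and 1.58 and 1.64 with. Its gap of -1.27 (-1.85 to -0.72) was the largest on the lower side. Msln, mesothelin, was at 8.83, 10.3, 4.13 and 5.54 CPM in the untreated, PBS, E. coli and LGG libraries, a gap of -0.67 (-0.97 to -0.38). Wt1, a transcription factor of mesothelium, was at 3.29, 1.62, 0.620 and 0.889 CPM, and its gap of -0.85 barely excluded 0 (-1.71 to -0.02). Wt1 met the expression filter only through its values without bacteria. Gpm6a, a membrane glycoprotein that neurons also make, was at 6.52, 6.23, 2.995 and 3.69 CPM.

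Upk3b, the uroplakin of mesothelium, lay just outside the rule with a gap of -0.54 (-0.85 to -0.23). The keratin Krt19, which the epithelium also makes, and the matrix protein Efemp1 overlapped between the sides. Without Krt19 the list summed to 83.9 and 76.4 CPM without bacteria and to 59.0 and 58.8 with, and these sums did not overlap. How far the amount of serosal layer in each piece entered the value of C3 or of the other lower genes was not tested.

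The other 8 genes on the lower side were of low abundance, with means of 2.07 to 4.26 CPM. Scrn1, a secernin, was at 5.29 and 5.42 CPM without bacteria and 2.93 and 2.56 with, a gap of -0.85 (-1.26 to -0.46). Nr4a2, an orphan nuclear receptor and immediate early gene, was at 5.33, 5.23, 3.13 and 3.35 CPM, a gap of -0.64 (-1.08 to -0.21). It was the 1 member past the rule among 24 immediate early genes. Of these, 3 separated upwards (12.5%, against 17.3% of all genes) and 4 downwards (16.7%, against 17.8%). The ion channel subunits Scn9a (gap -0.72) and Kcng4 (-0.65), the adhesion molecule Ncam2 (-0.60), the RNA-binding protein Rbm24 (-0.68), the transcription factor Myrf (-0.92) and the X-linked Xlr3b (-0.68) made up the rest. For Myrf and Xlr3b the libraries with bacteria differed most from each other, at 0.895 against 1.64 and 0.861 against 1.78 CPM. Ncam2 no longer passed the rule with a prior count of 5 or after the length trend was removed. All 13 genes had an adjusted p of 0.8533 in edgeR, and of these DESeq2 called C3 alone.

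**Figure D2:**
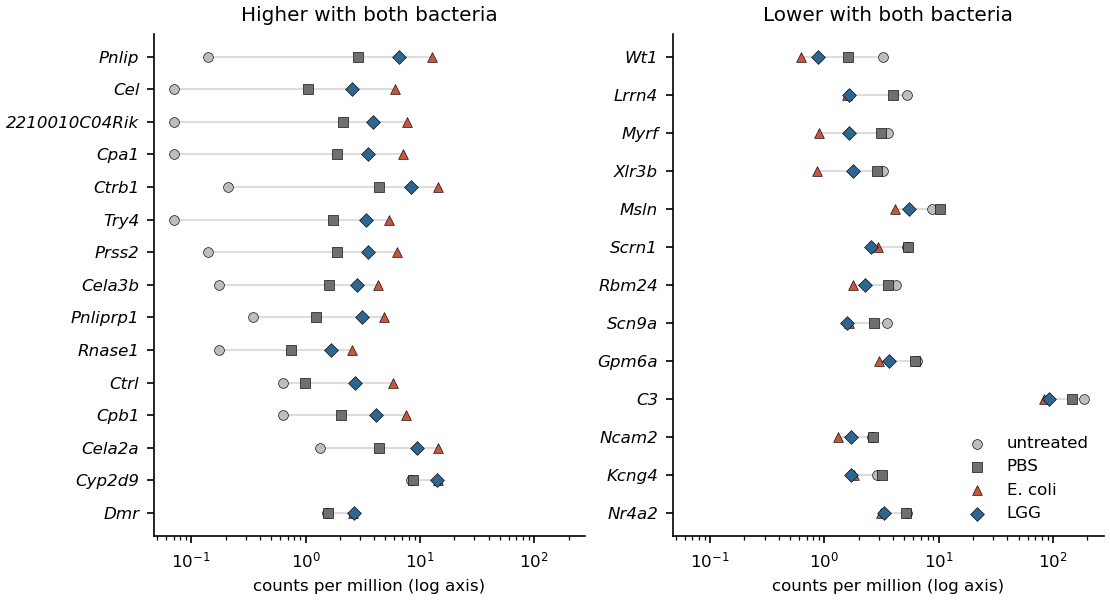
CPM on a log axis (x) in each of the 4 libraries (points) for the genes past the size rule (y), higher with both bacteria on the left and lower on the right; grey lines span each gene's range. The acinar genes run from untreated to PBS, LGG and E. coli, while Cyp2d9 shows the libraries of a side close together. C3 lies at 84.1 and 91.9 CPM with bacteria and at 188 (untreated) and 147 (PBS) without.

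Just inside the size rule were Ncam2 (-0.60) and Nr4a2 (-0.64), and just outside were Lcor, a nuclear receptor corepressor (-0.58), Brsk2 (-0.58), Upk3b (-0.54) and the protease inhibitor Slpi (-0.51). Tlr6, a Toll-like receptor for lipoproteins, had a gap of 0.60, from 0.946 and 0.872 CPM without bacteria to 1.45 and 1.71 with, but its interval of -0.12 to 1.37 included 0. Lcor, Brsk2 and Upk3b were named for their place at the threshold.

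The other genes with a mean of at least 10 CPM that are named here had gaps below 1.5-fold. They were picked after their values were seen, among those whose interval bound nearest 0 lay farthest from it. That ranking was not followed in full, and Clec3b (gap 0.31) and Snhg11 (-0.36) were passed over. Slc25a20, the carnitine-acylcarnitine carrier of mitochondria, was at 133 and 138 CPM without bacteria and 173 and 186 with, a gap of 0.33 (0.25 to 0.40). Slc37a2, a sugar phosphate exchanger, was at 155, 181, 272 and 215 CPM in the untreated, PBS, E. coli and LGG libraries. Eif2s2, a subunit of the translation initiation factor eIF2, was at 334 and 392 CPM without bacteria and 456 and 467 with, a gap of 0.22 (0.17 to 0.26). The metallothionein Mt1 was at 154, 150, 178 and 202 CPM, and the cell cycle inhibitor Cdkn1a at 297, 316, 355 and 353. On the lower side stood Abcc9, a subunit of potassium channels in muscle, at 60.2 and 53.2 against 40.2 and 40.2 CPM (gap -0.40, -0.53 to -0.27). The small-conductance potassium channel Kcnn3 was at 14.9, 12.03, 7.68 and 8.61 CPM and the matrix protein Thbs2 at 45.9, 40.6, 30.5 and 32.0. In each of these genes the sides did not overlap, and none had an edgeR adjusted p under 0.05.

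Responses tied to the pathway named in the title of the series, that of the oxidant-responsive factor Nrf2, separated the sides about as often as all genes did. Nfe2l2, which encodes Nrf2, was at 208 and 202 CPM without bacteria and 202 and 211 with, and its sides overlapped. Of the named pathway genes, Keap1, which holds Nrf2 in the cytosol, had a gap of 0.03, Hmox1 one of -0.01 and Gclc one of -0.02, and Nqo1, Gclm, Txnrd1, Srxn1 and the oxidase Nox1 overlapped. Of 41 measured Nrf2 target and glutathione genes, 8 separated upwards (19.5%) and 4 downwards (9.76%), 0 passed the size rule and the median side difference was 0.07. The ferritin subunit Fth1 was at 1264, 1223, 1301 and 1292 CPM. The malic enzyme Me1 was at 58.7, 56.0 and 53.3 CPM in the untreated, PBS and LGG libraries and at 29.8 after E. coli. Its side difference of -0.52 thus rested on the E. coli library, and its gap was -0.07.

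In the Toll-like and NOD receptor list 4 of 28 measured genes separated upwards and 4 downwards (14.3% each way). Over all genes the shares were 17.3% upwards and 17.8% downwards, for this list and those that follow. The endotoxin receptor Tlr4 was at 24.5 and 24.6 CPM without bacteria and 21.6 and 21.8 with, a gap of -0.17 (-0.33 to -0.01). Its co-receptor Cd14 was at 21.4, 26.7, 29.1 and 29.8 CPM (gap 0.13, -0.04 to 0.30). In the NF-kB feedback and cytokine list 5 of 21 separated upwards (23.8%) and 4 downwards (19.0%), among them the interferon regulatory factor Irf1, at 116 and 124 CPM without bacteria and 136 and 139 with (0.14, 0.06 to 0.22). Of 18 epithelial antimicrobial genes 0 were higher and 2 lower (11.1%), Slpi at 8.37, 9.47, 5.34 and 5.88 CPM and Lcn2, the siderophore-binding lipocalin, at 1.75, 1.75, 1.45 and 1.47. Of 38 interferon-stimulated genes 1 separated upwards (2.63%) and 4 downwards (10.5%). In the division of E. coli and untreated against LGG and PBS, 19 separated, where 27.4% of all genes did. The NADPH oxidase list, with 2 of 12 higher and 1 lower, had Nox1 at 26.0, 26.7, 26.9 and 22.01 CPM. None of these lists had a gene past the size rule, though Slpi passed it after the length trend was removed.

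In the fasting, colonocyte, xenobiotic and B cell lists more genes separated upwards than downwards, but still more separated in a mixed division. Of the fasting and PPAR-alpha genes, 6 of 23 separated upwards (26.1%, against 17.3% of all genes) and 0 downwards: beside Slc25a20 these included the mitochondrial fatty acid enzymes Cpt1a (208 and 196 against 232 and 227 CPM) and Acadl (122 and 129 against 144 and 142). The list's median was 0.05. In the division of E. coli and PBS against LGG and untreated, 16 of its genes separated, where 37.5% of all genes did. In the absorptive colonocyte list 8 of 27 separated upwards (29.6%) and 0 downwards, with a median of 0.16, while 13 were higher and 2 lower on the side of E. coli and PBS in that mixed division. Without the untreated library the median was 0.026, and without PBS 0.34. The monocarboxylate transporter Slc16a1 was at 268, 274, 297 and 306 CPM, whereas the carbonic anhydrase Car2, at 647, 1105, 1220 and 1141, had PBS near the bacteria and a gap of 0.05. In the xenobiotic metabolism list 7 of 26 separated upwards (26.9%) and 1 downwards, among them the efflux pump Abcb1a at 376, 450, 501 and 487 CPM. The median of that list was -0.036, and in the mixed division 2 of its genes were higher and 14 lower. B and plasma cell genes had a median of 0.30 with 5 of 19 higher (26.3%) and 0 lower, against 12 higher and 1 lower in the mixed division. Without the untreated library this median changed sign, to -0.036, and without PBS it was 0.62. There the untreated library stood apart, as for the B cell marker Ms4a1 at 2.24, 3.37, 3.99 and 3.55 CPM.

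Cytosolic ribosomal protein genes gave the most uniform shift of the lists. Of 32 measured genes, 30 separated upwards (93.8%, against 17.3% of all genes), 0 separated downwards and 2 overlapped. The shift was small: side differences ran from 0.06 to 0.17, with a median of 0.10, and 0 genes passed the size rule. Rps2, a protein of the small subunit, was at 952 and 966 CPM without bacteria and 1040 and 1064 with, a gap of 0.11 (0.08 to 0.13). Rpl6, of the large subunit, was at 549, 546, 592 and 595 CPM, and Rps18 at 332, 338, 367 and 382. Among all 77 measured symbols of the Rpl, Rps and Rplp series, a group assembled after values were seen, 65 separated upwards and 0 downwards. In the mixed divisions 8 and 4 separated, where 37.5% and 27.4% of all genes did. With library totals in place of scaling by trimmed mean the median of the list was 0.055.

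Genes of oxidative phosphorylation followed the ribosomal protein genes: 18 of 32 separated upwards (56.2%), 0 downwards, with a median of 0.10. Cox5a, a subunit of cytochrome c oxidase, was at 325, 336, 349 and 386 CPM in the untreated, PBS, E. coli and LGG libraries, and the ATP synthase subunit Atp5b at 1901, 2019, 2035 and 2062. The gap was 0.05 for Cox5a and 0.01 for Atp5b, so that the separation of single genes was slight.

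Part of the genes of the muscle wall and its nerves separated downwards. In the smooth muscle list 11 of 20 separated downwards (55.0%, against 17.8% of all genes) and 0 upwards, with a median side difference of -0.19. Myh11, the smooth muscle myosin heavy chain, was at 2929 and 2487 CPM without bacteria and 2303 and 2313 with (gap -0.10, -0.12 to -0.09). The actin crosslinker Flna was at 2027, 1918, 1655 and 1646 CPM, the actin-associated Synpo2 at 242, 176, 151 and 147, and the adhesion protein Pgm5 at 284, 267, 224 and 228. In all 4 genes the untreated library was highest and the sides did not overlap. The other 9 genes of the list overlapped, among them the muscle filament desmin, Des, at 1972, 1880, 1741 and 2026 CPM and thus highest after LGG. The summed level of the list was 20764 and 18918 CPM without bacteria and 17119 and 18549 with. Without the untreated library the list's median was -0.081, and without PBS -0.29.

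The enteric neuron and glia list had 9 of 22 genes lower (40.9%, against 17.8% of all genes) and 0 higher, with a median of -0.25 that ran from -0.46 to -0.12 when a library was left out. More of its genes, 12, separated in the division of E. coli and PBS against LGG and untreated, where 37.5% of all genes did. The summed level of the list, 667, 528, 513 and 536 CPM, overlapped between the sides with and without bacteria. Gfap, the intermediate filament of enteric glia, was at 8.20 and 5.98 CPM without bacteria and 3.99 and 4.44 with (gap -0.43, -0.82 to -0.03). Nos1, the synthase of the inhibitory transmitter nitric oxide, was at 13.9, 9.53, 7.95 and 7.04 CPM, and its interval of -0.56 to 0.04 included 0. Vip, an inhibitory neuropeptide, was at 24.4 and 23.9 against 19.3 and 20.5. The endocrine marker list had 6 of 19 lower (31.6%) and 1 higher, and its median of -0.25 was -0.0043 without the untreated library. In the division of E. coli and PBS against LGG and untreated, 9 of its genes were lower and 2 higher. The collagen and matrix list had 7 of 23 lower (30.4%) and 0 higher. With E. coli and untreated 11 were higher than with LGG and PBS, a division that separated 27.4% of all genes. The summed level of the collagen and matrix list was 5669, 4922, 5204 and 4598 CPM, with PBS between E. coli and LGG. For the elastin gene Eln, at 103, 51.4, 50.1 and 42.9 CPM, PBS sat close to E. coli, with a gap of -0.04. Lists of the epithelium, muscle, nerves and mesothelium thus differed side by side in the same libraries, and the part of the makeup of each tissue piece was not tested.

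**Figure D3:**
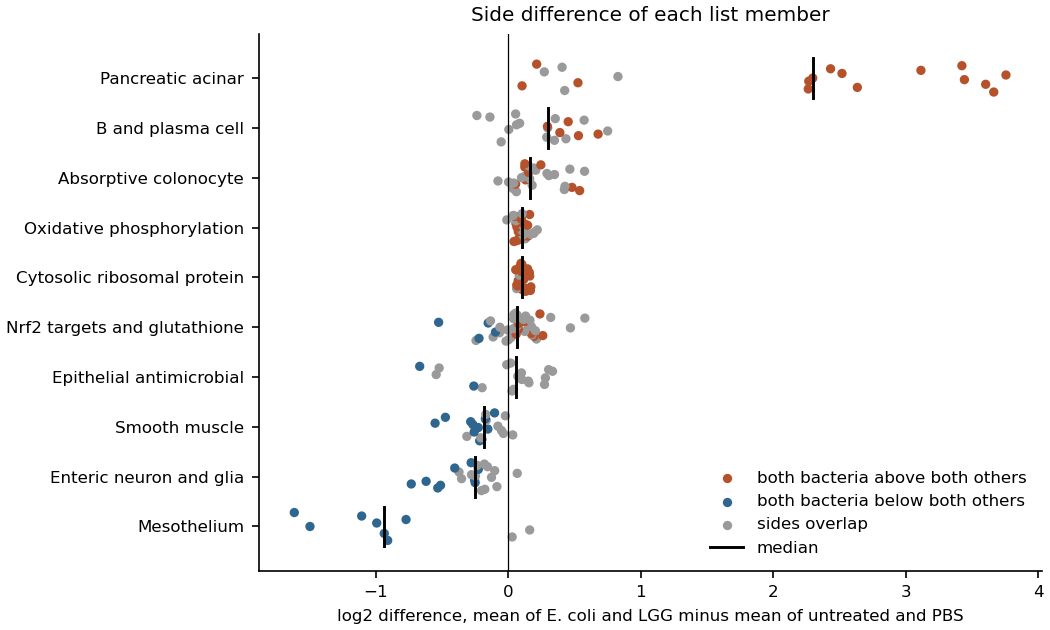
Side difference (x, log2, mean of E. coli and LGG minus mean of untreated and PBS) of each measured gene (point) in 10 lists (y); colour tells whether the sides separated and the black bar is the list's median. Ribosomal protein genes cluster tightly near their median of 0.10, smooth muscle and neuronal genes lie mostly below 0, and acinar (2.30) and mesothelial (-0.93) medians lie far to either side.

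Transcript length, as the deposited table gives it, moved with this division of the libraries, mostly through the untreated and LGG libraries. Of the quintile of genes with the shortest transcripts (58 to 1607 bases), 29.4% separated upwards and 7.75% downwards. Of the quintile with the longest (4677 to 83436 bases), 5.71% separated upwards and 31.0% downwards. The median side difference ran from 0.08 in the shortest quintile to -0.07 in the longest. The median deviation from the mean of the libraries in the shortest quintile was -0.06, -0.01, -0.0017 and 0.08 from untreated to LGG. In the longest quintile it was 0.056, 0.015, 0.0013 and -0.065, so PBS and E. coli were nearly flat over length. Abundance moved with the division as well: 10.8% of the least abundant quintile and 23.6% of the most abundant separated upwards. Among the 533 genes in both the shortest and the most abundant quintile the share was 43.3%. Downwards, 25.2% of the least abundant quintile and 9.48% of the most abundant separated. With the length trend removed as described below, these downward shares were 26.3% and 6.57%. A length trend was also present in the mixed division of E. coli and untreated against LGG and PBS. There 6.16% of the shortest quintile separated upwards and 23.2% downwards, against 20.5% and 5.26% of the longest.

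Ribosomal protein genes of the list have a median transcript length of 778 bases and oxidative phosphorylation genes one of 1027, against 3650 for the smooth muscle list and 2844 for all genes. When the length trend of each library, the median log2 deviation in 50 bins of length, was subtracted, the ribosomal protein count fell from 30 to 7 of 32, with a median of 0.03, and the wider group had 15 of 77. Oxidative phosphorylation then had 9 higher and 1 lower of 32, with a median of 0.03. In the same alternative smooth muscle had 10 of 20 lower (median -0.17), enteric neuron and glia 12 of 22 (-0.27), mesothelium 7 of 9 (-0.93), and the acinar list 13 of 19 higher (2.22). Colonocyte genes had 8 of 27 higher and fasting genes 6 of 23. The size rule was met by 28 genes in this alternative as well, of which 26 were the same genes. Dmr and Ncam2 dropped out, and Slpi (gap -0.67) and Fxyd7 (-0.78) came in. The alternative was chosen after the data were seen.

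**Figure D4:**
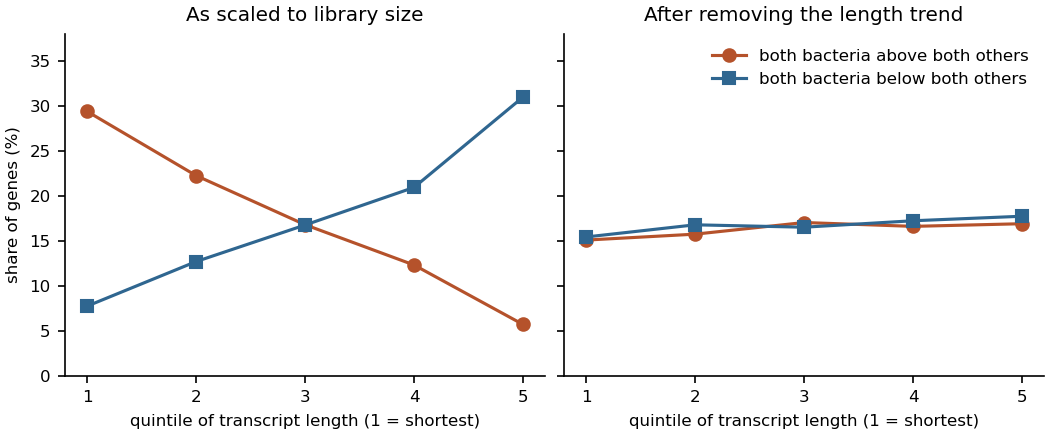
Share of genes (y, %) whose values with both bacteria lay above (orange circles) or below (blue squares) both others, by quintile of transcript length (x, 1 = shortest). As scaled to library size (left) the share above runs from 29.4% to 5.71% and the share below from 7.75% to 31.0%. After the length trend of each library was subtracted (right) both stay between 15.1% and 17.7%. The subtraction levels the medians over length by design, so the flat lines on the right are no separate result.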

How the data were processed

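RNA-seq of colon was deposited by the authors as 1 table of expected counts by gene, with RefSeq accessions and positions in mm9; TopHat2 and HOMER were used, per the submitters' processing notes, while strand and versions were not given in the sources used here. Counts step by 0.5 and were rounded. Libraries were scaled by trimmed mean of M-values (edgeR 4.0.16, R 4.3.3), with factors of 1.05 (untreated), 0.985 (PBS), 0.989 (E. coli) and 0.979 (LGG). Log2 CPM used a prior of 0.5 counts (Python 3.11.15, numpy 2.4.6, pandas 2.3.3, scipy 1.17.1; figures with matplotlib 3.10.9). edgeR was fitted on side alone with 2 residual degrees of freedom; DESeq2 1.42.0 was an alternative. In a test on simulated counts for both bacteria against both others, over 14450 genes, edgeR called 87 of 100 genes with a log2 change of 1, 100 of 100 with 2 and 29 of 14250 unchanged. The simulated libraries of a side were drawn from the same mean, as replicates would be. The real sides hold unlike treatments, so these shares do not carry over to the real fit.

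The members and the 37 gene lists were chosen with earlier results of these data known. Up to 12 genes a direction past the size rule were named by the interval bound nearest 0, without non-coding and predicted genes, then the Nrf2 pathway genes, up to 4 genes a list and 4 a direction in the mixed divisions. Other alternatives were the scaling, the expression filter, the prior, the fold and leaving out each library. Some genes that these lists hold are not reported here.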

Additional observations from a re-analysis of the deposited data

How the results depend on the processing

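The 28 genes past the size rule numbered 6 at a mean CPM of at least 5, 62 with the smaller and 7 with the larger (2-fold) gap tried, and 12 (3 higher, 9 lower) without the acinar, adipocyte, mesothelium and erythroid lists. Leaving out a library gave 62 to 503, since fewer libraries must separate: 62 without untreated, 503 without PBS, 71 without E. coli and 116 without LGG. Library totals, DESeq2 size factors, upper-quartile factors, no filter, a prior of 5 and the removed length trend gave 27 to 34 genes. For E. coli and PBS against LGG and untreated (36 genes), the counts were 19 at a mean CPM of at least 5, 196 with the smaller and 5 with the larger gap, and for the remaining division (8 genes) 4, 24 and 2. edgeR's 0 calls became 2 with DESeq2 and ran from 0 to 581 when a library was left out, where 1 library then stands for a side and is assumed to vary like the other side.

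List medians moved with library totals for Toll-like receptors (-0.036), glucocorticoid-induced genes (0.032), tight junction (-0.017), macrophages (-0.034), neutrophils (-0.13) and ribosomal proteins (0.055). They moved with the length trend removed for macrophages (-0.047), oxidative phosphorylation (0.028) and ribosomal proteins (0.031). With each library left out, the lowest and highest medians were -0.048 and 0.19 for NADPH oxidase, -0.0037 and 0.089 for NF-kB, -0.030 and 0.015 for Toll-like receptors, -0.16 and 0.15 for antimicrobial genes, -0.012 and 0.44 for MHC class II, and -0.099 and 0.16 for heat shock. They were -0.046 and 0.29 for cholesterol synthesis, 0.026 and 0.34 for colonocytes, -0.64 and 0.077 for the small intestinal list, -0.0083 and 0.052 for tight junction, -0.059 and 0.024 for stem cells, and -0.29 and -0.081 for smooth muscle. For adipocytes they were -0.39 and 0.13, for T cells -0.38 and -0.11, for macrophages -0.065 and -0.0045, for neutrophils -0.16 and -0.086, and for endothelium -0.25 and -0.016. The cause was not tested. No direction of the genes named by the rule and past the size rule reversed under these alternatives; Cela3b, Dmr and 2210010C04Rik were not rerun. PBS, with 16289580 counts, sets the width of most intervals.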

Other observations

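Symbols of ion channel genes formed a group that was assembled after values were seen. Of 50 measured potassium channel symbols (Kcn), 15 separated downwards (30.0%, against 17.8% of all genes) and 1 upwards, with a median side difference of -0.17. On the side of E. coli and PBS, against LGG and untreated, 15 of them were lower as well and 6 were higher, in a division that separated 37.5% of all genes. Of 8 voltage-gated sodium channel symbols (Scn) 4 separated downwards and 0 upwards. Kcnk2, a background potassium channel, was at 5.26 and 3.05 CPM without bacteria and 1.65 and 2.43 with, and Scn3b, a sodium channel beta subunit, at 3.15 and 2.74 against 2.00 and 2.12. The intervals of their gaps, -0.88 to 0.22 and -0.95 to 0.22, included 0. After the length trend was removed, 12 and 3 of these symbols separated downwards. Of the 50 Kcn symbols 3 were in the most abundant quintile, and their median length was 3708 bases. In length quintile 4, 29.5% of the least abundant quintile of genes and 28.1% of the next separated downwards, near the 30.0% of Kcn. The 8 Scn symbols had a median length of 6556 bases. In length quintile 5 the same shares were 40.5% and 35.3%.

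Of 77 measured mitochondrial ribosomal protein symbols (Mrpl and Mrps), 21 separated upwards (27.3%, against 17.3% of all genes) and 5 downwards (6.49%, against 17.8%). Fewer separated upwards than among the cytosolic ones. In the division of E. coli and untreated against LGG and PBS, 35 separated, where 27.4% of all genes did. After the length trend was removed, 10 separated upwards and 12 downwards.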
